A study of Rattus norvegicus with 12 samples.

Results

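The 42 genes described here encode scaffolds, calcium/calmodulin-dependent kinases, calcineurin subunits, AMPA receptor trafficking proteins and spine regulators of the postsynaptic density, the protein-dense disc beneath the membrane of excitatory synapses. They were listed by what their products do, with earlier results of these data known. Of the 42, 39 had a named probe on the rat expression array, among 15154 genes that could be named through a probe's accession. Ctnnd2, Iqsec2 and Cnih3 had none. Each gene was read from the probe with the highest mean signal over the 12 arrays. One probe represented 24 of the genes, and 15 had several, whose other probes are given beside the gene. All 39 probes were well above background on all 12 arrays.

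The arrays measured RNA of primary hippocampal neurons from Wistar rat embryos (E18 in the labels, E18-E19 in the study's methods), grown for 14 to 15 days in vitro. Oxygen and glucose deprivation (OGD), a culture model of ischemia, lasted 2 h in glucose-free buffer in an anaerobic chamber, and control cultures (Ctrl) spent that time in the same kind of buffer with glucose in normal culture gas. Both were returned to conditioned medium and collected 7 h or 24 h later, with 3 arrays in each of the 4 groups from independent cultures. The study's methods state that such cultures contain a minority of glial cells, so each value is an average over a mixed culture.

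Membrane-associated guanylate kinases (the Dlg genes) bind glutamate receptor tails, SAPAP proteins (Dlgap) connect them to Shank proteins, and Shank connects to Homer and the actin cytoskeleton. Calcium entering through NMDA receptors activates CaMKII, which favours synaptic potentiation, and calcineurin, a phosphatase that favours depression. GRIP, PICK1 and cornichon proteins govern where AMPA receptors are held and how they gate.

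Values are log2 signals relative to the median of each array, so that a difference of -1 is a halving relative to the bulk of the probes. Median array intensity was 447 to 660 in Ctrl and 234 to 426 in OGD at 7 h. It was 402 to 477 in Ctrl and 131 to 546 in OGD at 24 h, where OGD replicate 1 was the dimmest of the 12 arrays. The arrays lay in pairs on 6 slides, a Ctrl and an OGD culture with equal recovery and replicate number on each, and differences within slides are given beside the group results. With a shared fit of all 12 arrays in limma, no gene listed here and no probe on the array passed an adjusted p of 0.05 for OGD against Ctrl. Over all probes that p was at least 0.117 at 7 h and 0.209 at 24 h. Limma array weights ran from 0.105 for OGD 24h replicate 1, the lowest, to 8.98. With them, 7 of the 39 genes passed at 7 h (Dlg3, Dlgap2, Dlgap3, Dlgap4, Shank1 and Pick1 lower, Camk2d higher) and 2 at 24 h (Nrgn and Tanc2, both lower). At an unadjusted p under 0.05, 3590 probes differed at 7 h and 4160 at 24 h in the fit without weights. With weights, the share of named genes lower at 7 h by that threshold rose from 8.06% to 20.3%, beside 9 of the 39 genes. The share higher rose from 3.89% to 11.6%, beside 3 of the 39. The weighted 24 h shares were 9.85% lower and 9.43% higher, beside 19 and 0 of the 39. No share of named genes after adjustment is given, so the 7 and 2 adjusted calls cannot be set against one. Below, a gene written as lower or higher, or as passing, met this unadjusted threshold in limma, and the lowest adjusted p among the 39 genes was 0.255 at 7 h and 0.252 at 24 h. Errors after ± are standard errors of a log2 fold change from the fit.

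At 24 h after OGD, 35 of the 39 genes had a log2 fold change below 0, beside 8109 of the 15154 named genes. The median of the 39 was -0.66, against -0.03 over the named genes. At the unadjusted threshold 19 of the 39 (48.7%) were lower, beside 6.9% of named genes and 8.62% of those that were well above background on all arrays, and 0 were higher, beside 6.36%. The 3 OGD arrays all lay under the 3 Ctrl arrays for 19 genes (48.7%), beside 7.56% of named genes, and no gene showed the opposite separation, beside 9.07%. Dlgap2, Dlgap3, Grip2 and Kalrn passed the threshold with a halving or more (4 genes, 10.3%, beside 2.38% of named genes), and none passed with a doubling, beside 2.74%.

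At 7 h, with the main processing, the same genes were spread around the array median. Their median log2 fold change was -0.13, against -0.11 over the named genes, and 26 of 39 lay below 0, beside 9070 of 15154. This depended on how background was handled. Under normexp background correction the 7 h median was -0.48, against -0.09 over the named genes, and 31 of 39 lay below 0. At the unadjusted threshold 4 were lower (Dlg3, Dlgap2, Dlgap4 and Pick1, 10.3% beside 8.06% of named genes and 8.63% of those well above background) and 2 were higher (Camk2d and Nsmf, 5.13% beside 3.89%), of which the Nsmf probe was saturated on most arrays. Dlgap2 and Pick1 were lower by a halving or more (5.13% beside 2.07%), and no gene was higher by a doubling, beside 1.56%. All 3 OGD arrays lay under all 3 Ctrl arrays for 13 genes (33.3% beside 17.9%) and above them for 4 (10.3% beside 7.6%).

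**Figure D1:**
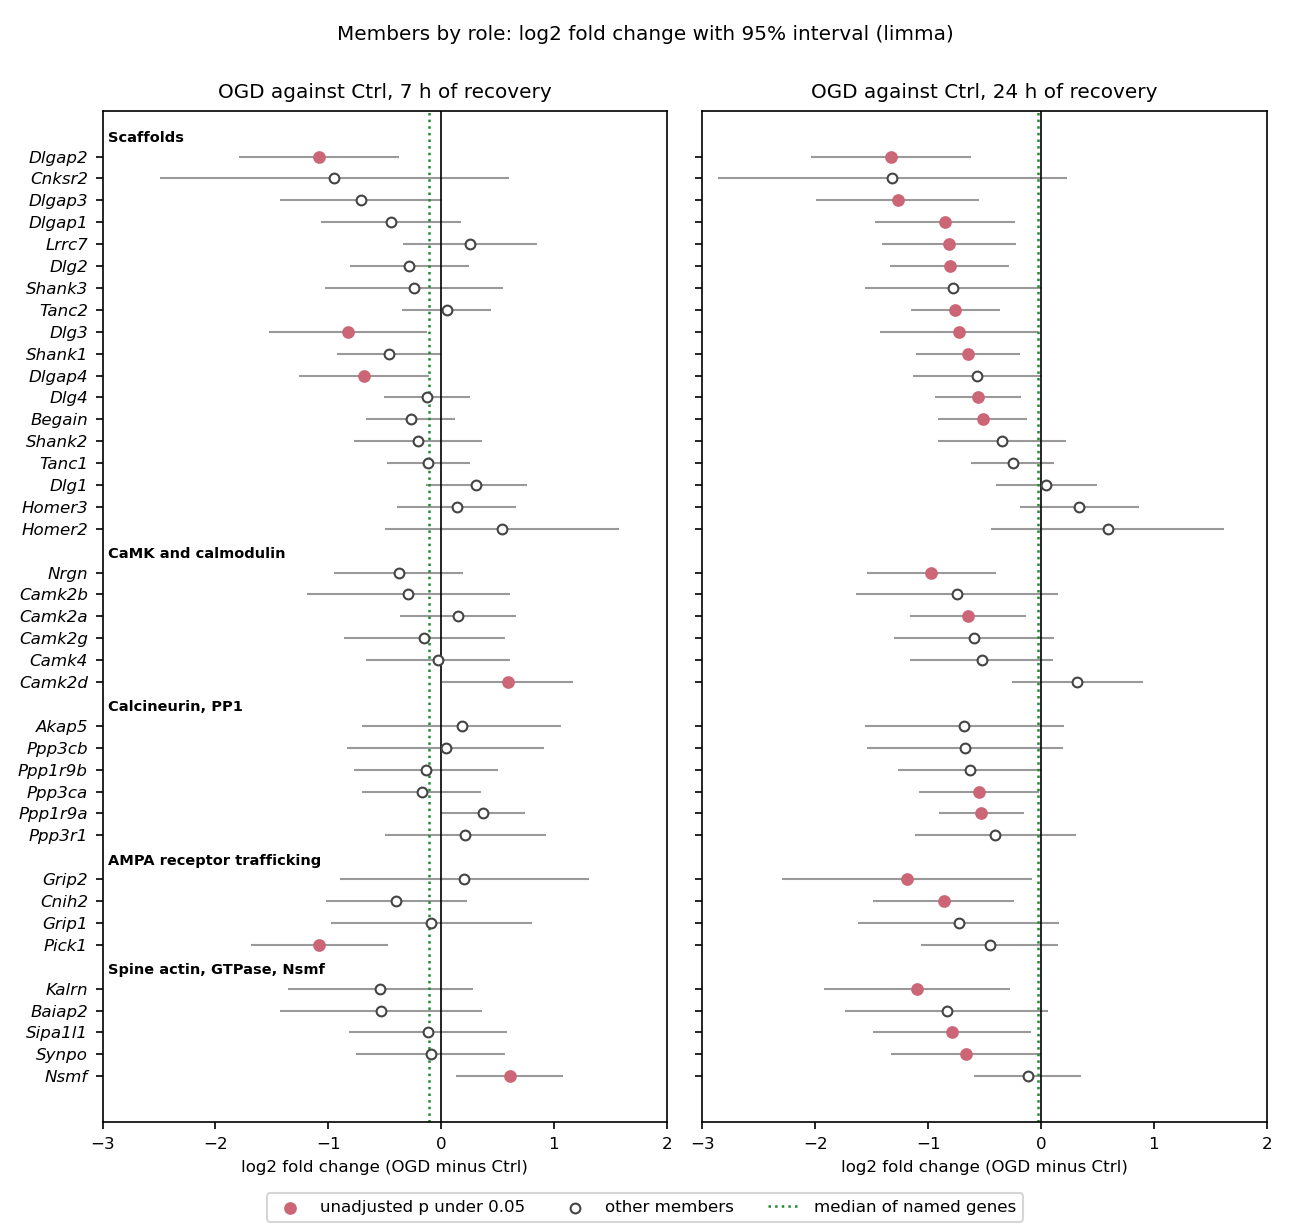
Log2 fold change (horizontal axis, OGD minus Ctrl) of the 39 genes, by role, at 7 h and 24 h of recovery. Bars are 95% intervals from limma, filled points have an unadjusted p under 0.05, and the dotted line is the median of the 15154 named genes. At 24 h 35 of 39 points lie left of 0, and at 7 h 26 do, beside 8109 and 9070 of the 15154 named genes. The probe of Nsmf was saturated on 9 of the 12 arrays.

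The size of the 24 h difference varied between slides. Within slides, the median difference of the 39 genes at 24 h was -1.41 for replicate 1, with 34 genes below 0, against -0.15 over the named genes. It was -0.36 for replicate 2, with 33 below 0, against -0.06, and -0.38 for replicate 3, with 30 below 0, against 0.16. The median was thus under that of the named genes on all 3 slides, and 24 of the 39 genes were below 0 on each of them, beside 13.0% of named genes. Without OGD 24h replicate 1, the dim array, 16 genes were lower and 1 was higher at the unadjusted threshold, and the median was -0.38. Of named genes 5.45% were lower and 5.38% higher in that setting. Without both slides of replicate number 1, 8 were lower, beside 2.28% of named genes, and the median was -0.33, against 0.05 over the named genes. At 7 h the slide medians were -0.42, -0.10 and -0.03, against -0.16, -0.01 and 0.01 over the named genes, and 17 genes were below 0 on all 3 slides, beside 26.5% of named genes. Without Ctrl 7h replicate 1 or OGD 7h replicate 1 the count of lower genes at 7 h was 2 in either case, beside 5.83% and 3.58% of named genes. Without OGD 24h replicate 1, which sits in the shared estimate of the spread, it was 10, beside 13.6%. The count of higher genes at 7 h was 0 without OGD 7h replicate 1 (beside 2.09% of named genes) and 4 without OGD 24h replicate 1 (beside 6.44%). Without any of the others it was 1 or 2. Of the 19 genes lower at 24 h, 11 passed without any 1 of the 12 arrays, and the others were Begain, Camk2a, Dlg3, Grip2, Lrrc7, Ppp3ca, Sipa1l1 and Synpo. Of the 6 called at 7 h, 2 did, Dlgap2 and Pick1. The count lower at 24 h was 10 by the methods' t-test, beside 1.78% of named genes. It was 4 when arrays were scaled to a spike-in probe, beside 2.02%.

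**Figure D2:**
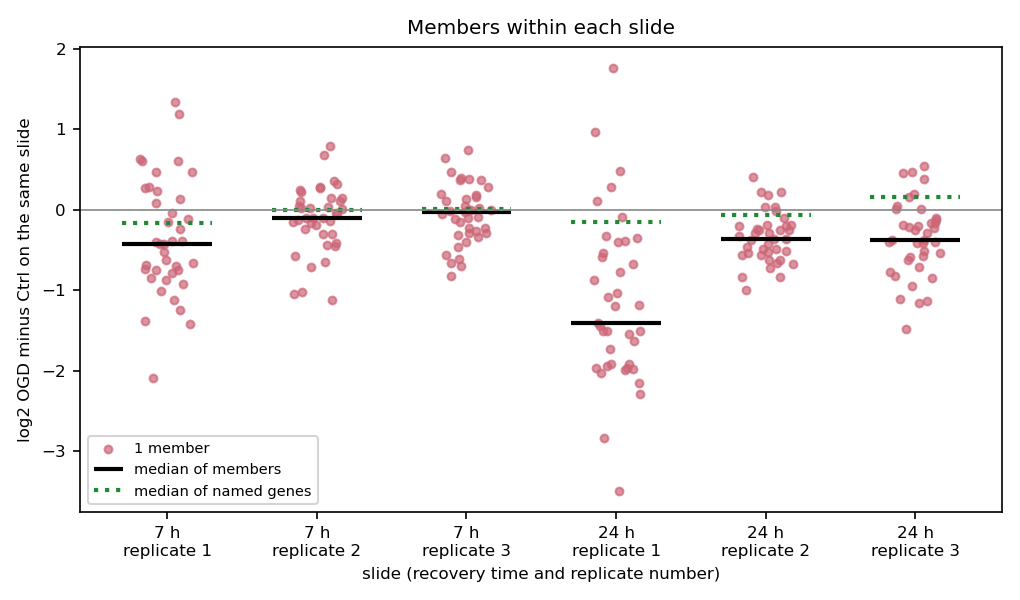
Log2 difference (vertical axis, OGD minus Ctrl) between the 2 arrays of each of the 6 slides (horizontal axis, recovery time and replicate number). Each point is 1 of the 39 genes, the solid bar their median and the dotted bar the median of the named genes. The solid bar lies under the dotted bar on all 3 slides at 24 h, furthest for replicate 1 at -1.41.

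The scaffolds were the largest group, with 18 genes. At 24 h 15 had a log2 fold change below 0, beside 8109 of the 15154 named genes (median -0.69). At the unadjusted threshold 10 of the 18 were lower, beside 6.9% of named genes. At 7 h 13 lay below 0, beside 9070 of the 15154, and 3 were lower, beside 8.06% (median -0.25). The lowest fold change of the group at both times was that of Dlgap2, 1 of the 4 SAPAP genes, whose products link the Dlg and Shank layers. Dlgap2 measured 2.19, 2.51 and 2.25 on the Ctrl arrays at 7 h and 0.81, 1.48 and 1.43 after OGD. At 24 h it measured 2.66, 2.56 and 2.62 in Ctrl and 0.51, 1.89 and 1.47 after OGD. At both times every OGD array was below every Ctrl array, with replicate 1 the lowest. The log2 fold change of Dlgap2 was -1.08 ± 0.32 at 7 h and -1.33 ± 0.32 at 24 h, and it passed at both (limma adjusted p = 0.276 and adjusted p = 0.254). Its dimmer second probe passed at both times too, with -0.75 and -0.80. The study itself had picked Dlgap2 out of these arrays, so its direction here is not independent evidence. The study also reported a decrease of Dlgap2 by qPCR, and listed it among genes whose qPCR decrease came at a later time.

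Dlgap3 measured 2.14, 2.40 and 2.22 in Ctrl and 1.21, 1.75 and 1.65 in OGD at 7 h. At 24 h the Ctrl arrays read 2.86, 2.89 and 3.03 and the OGD arrays 0.95, 2.46 and 1.56. The arrays of the conditions did not overlap at either time, and OGD replicate 1 was again the lowest. The difference was -0.71 ± 0.32 at 7 h, just short of the threshold, and -1.27 ± 0.32 at 24 h (limma adjusted p = 0.262). Without OGD 24h replicate 1 it still passed at 24 h, with -0.92. Dlgap1 was at -0.45 ± 0.28 at 7 h, which did not pass, and was lower at 24 h, at -0.85 ± 0.28, or -0.50 without OGD 24h replicate 1, which still passed. Its second probe gave -0.67 at 7 h, which did not pass, and -0.98 at 24 h, which did. Dlgap4 passed at 7 h, with -0.68 ± 0.26, and not at 24 h, with -0.56 ± 0.26, but the difference between these responses was 0.12 ± 0.37, far from the threshold. All 4 SAPAP genes had negative fold changes at both times.

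Among the Dlg genes, Dlg2, which encodes PSD-93, was lower at 24 h, at -0.81 ± 0.24. Dlg4, which encodes PSD-95, the most studied scaffold of the density, was lower, at -0.56 ± 0.17, with Ctrl arrays at 0.03, 0.27 and 0.01 and OGD arrays at -0.51, -0.29 and -0.56. The OGD arrays of Dlg4 lay close together below all the Ctrl arrays, and replicate 1 did not stand apart. Dlg3, which encodes SAP102, was lower at 7 h, at -0.83 ± 0.32 and at 24 h, at -0.72 ± 0.32, and its second probe passed at both times, with -0.49 and -0.46. Without OGD 24h replicate 1 the 24 h value of Dlg3 was -0.31 and no longer passed. Dlg1, which encodes SAP97, passed at neither time, with 0.31 ± 0.20 at 7 h and 0.05 ± 0.20 at 24 h.

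Of the Shank genes, large scaffolds of the deeper layer, Shank1 was lower at 24 h, at -0.65 ± 0.21, after -0.46 ± 0.21 at 7 h, just short of the threshold. Both sets of arrays were free of overlap between Ctrl and OGD. The 24 h value was -0.43 without OGD 24h replicate 1 and still passed. Its other 2 probes read 0.11 and -0.02 at 7 h and -0.65 and -0.25 at 24 h, so the 7 h value was that of 1 probe of 3. Shank2, at -0.35 ± 0.26, and Shank3, at -0.78 ± 0.36, did not pass, although a dimmer probe of Shank3 passed with -0.52, after 0.02 at 7 h.

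Homer2 and Homer3, adaptors that couple Shank to metabotropic glutamate receptors and internal calcium stores, had the highest fold changes of the group at 24 h. Homer2 measured 2.79, 2.77 and 2.73 in Ctrl and 4.56, 3.19 and 2.33 in OGD. The OGD arrays of Homer2 spanned more than the whole difference and lay on both sides of Ctrl. Its fold change was 0.59 ± 0.47, and -0.01 without OGD 24h replicate 1. Homer3 was at 0.34 ± 0.24, and neither gene passed.

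Of the remaining scaffolds, Tanc2, a large ankyrin and tetratricopeptide repeat protein that binds PSD-95, had the lowest p of the 39 genes at 24 h. It measured 1.21, 1.53 and 1.29 in Ctrl and 0.54, 0.69 and 0.51 in OGD, a difference of -0.76 ± 0.18 (limma adjusted p = 0.252). The OGD arrays lay close together, and without OGD 24h replicate 1 it still passed, with -0.74. At 7 h Tanc2 was at 0.05 ± 0.18. Its second probe passed at 7 h as higher, with 0.62, and did not pass at 24 h, with -0.32. Tanc1, its paralogue, was at -0.25 ± 0.17 at 24 h and did not pass. Lrrc7, which encodes densin and binds CaMKII, was lower at 24 h, at -0.82 ± 0.27 and its second probe gave -0.88. Without Ctrl 24h replicate 1 the first was at -0.63 and no longer passed. Begain, a binding partner of PSD-95, was lower, at -0.51 ± 0.18. Cnksr2, a scaffold that joins Ras signaling to PSD-95, had a fold change of -1.32 but an error of 0.70 and did not pass. Its OGD arrays read 0.13, 2.65 and 3.53 against 3.62, 3.65 and 2.98 in Ctrl. A second probe of Cnksr2 passed with -0.73.

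**Figure D3:**
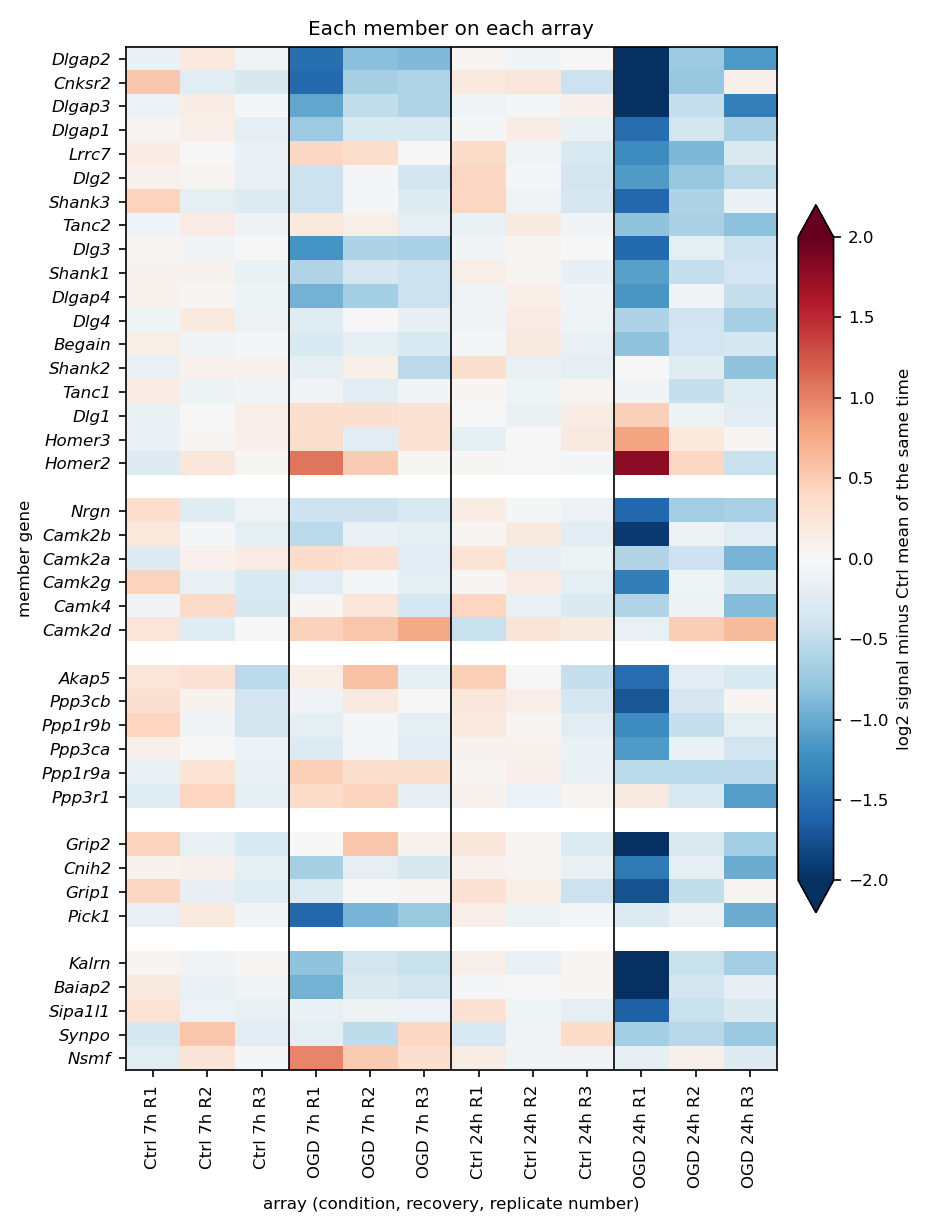
Each of the 39 genes (rows, by role) on each of the 12 arrays (columns), as log2 signal minus the Ctrl mean of the same time, with colours cut at -2 and 2. The OGD 24 h arrays are mostly blue, OGD 24 h replicate 1 most deeply, while Homer2 is red on that array.

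Among the 6 CaMK and calmodulin genes, 5 had negative fold changes at 24 h (median -0.62). At the unadjusted threshold 2 were lower, beside 6.9% of named genes. At 7 h 4 were negative (median -0.09), 0 were lower, beside 8.06%, and 1 was higher, beside 3.89%. Nrgn encodes neurogranin, a small neuronal protein that holds calmodulin at low calcium. It measured 3.46, 3.27 and 3.19 in Ctrl and 1.74, 2.62 and 2.65 in OGD at 24 h, with no overlap. The difference was -0.97 ± 0.26 (limma adjusted p = 0.262), and it still passed without OGD 24h replicate 1, with -0.67. At 7 h it was -0.38 ± 0.26 and did not pass.

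The genes of the 4 CaMKII subunits were not alike in sign. Camk2a, the alpha subunit typical of excitatory forebrain neurons, measured 1.57, 1.14 and 1.19 in Ctrl and 0.70, 0.89 and 0.38 in OGD at 24 h, a difference of -0.65 ± 0.23 that passed. At 7 h it was at 0.15 ± 0.23 and did not pass. Camk2b and Camk2g were at -0.75 ± 0.41 and -0.59 ± 0.32 at 24 h, and neither passed. Without OGD 24h replicate 1 they were at -0.16 and -0.20. A second probe of Camk2b gave 0.44 at 7 h and -0.36 at 24 h.

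Camk2d, the delta subunit that is also abundant outside neurons, had positive fold changes at both times. It measured -0.06, -0.54 and -0.29 in Ctrl and 0.17, 0.26 and 0.46 in OGD at 7 h, every OGD array above every Ctrl array. The difference was 0.59 ± 0.26, which passed. It did not pass under normexp background correction (0.42) or when any 1 of 8 of the 12 arrays was left out (0.47 or more), and its second probe gave 0.31 at 7 h and 0.41 at 24 h and passed at neither. At 24 h the first probe was at 0.32 ± 0.26 and did not pass, and without OGD 24h replicate 1 it was the gene counted as higher, with 0.56. Scaled to the spike-in probe rather than to the array median, Camk2d was at -0.22 at 7 h, where that scaling moved the median of all named genes to -0.91. Camk4, a nuclear CaMK that phosphorylates CREB, was at -0.03 ± 0.29 at 7 h and -0.53 ± 0.29 at 24 h, and passed at neither.

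The 6 genes of calcineurin and phosphatase targeting were all below 0 at 24 h (median -0.59). At the unadjusted threshold 2 of them were lower, beside 6.9% of named genes. Their slide medians were -1.31, -0.33 and -0.10, the first from the dim array, and 3 of the 6 lay below 0 on the slide of replicate 3. At 7 h their median was 0.11 and none passed in either direction, beside 8.06% of named genes lower and 3.89% higher. Ppp3ca, the catalytic A-alpha subunit of calcineurin, was lower at 24 h, at -0.55 ± 0.24, with OGD arrays at 3.58, 4.57 and 4.32 and Ctrl arrays at 4.77, 4.77 and 4.57. OGD replicate 2 equalled the lowest Ctrl array to 2 decimals, and without OGD 24h replicate 1 the difference was -0.26 and no longer passed. Ppp3cb, the A-beta subunit, was at -0.67 ± 0.39 and Ppp3r1, the regulatory B subunit, at -0.41 ± 0.32. Akap5, the anchoring protein that holds calcineurin and protein kinase A at the density, was at -0.68 ± 0.40, and these 3 did not pass.

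Ppp1r9a encodes neurabin, which targets protein phosphatase 1 to spines. It measured 1.85, 2.25 and 1.82 in Ctrl and 2.46, 2.29 and 2.29 in OGD at 7 h, and 2.73, 2.78 and 2.55 in Ctrl and 2.15, 2.16 and 2.17 in OGD at 24 h. The OGD arrays were the higher ones at 7 h and the lower ones at 24 h, with no overlap at either time. The difference was 0.37 ± 0.17 at 7 h, just short of the threshold, and -0.53 ± 0.17 at 24 h, which passed. The 7 h sign was not kept under normexp background correction (-0.07) or spike-in scaling (-0.43). Ppp1r9b, which encodes spinophilin, its close relative, was at -0.63 ± 0.29 at 24 h, just short of the threshold. Its second probe was at 0.97 at 7 h, which passed, and 0.09 at 24 h.

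The 4 AMPA receptor trafficking genes with a probe were all below 0 at 24 h (median -0.80). At the unadjusted threshold 2 of them were lower, beside 6.9% of named genes. At 7 h their median was -0.24 and 1 was lower, beside 8.06%. That gene was Pick1, which encodes a PDZ protein that promotes internalization of AMPA receptors. It measured 1.89, 2.24 and 1.99 in Ctrl and 0.47, 1.11 and 1.30 in OGD at 7 h. At 24 h it measured 2.51, 2.27 and 2.34 in Ctrl and 2.11, 2.26 and 1.39 in OGD. The gap between the conditions was wide at 7 h and nearly closed at 24 h, when the highest OGD array lay just under the lowest Ctrl array. The difference was -1.08 ± 0.28 at 7 h, which passed (limma adjusted p = 0.255), and -0.45 ± 0.28 at 24 h, which did not. Its change between the times, 0.63 ± 0.39, did not pass either. Pick1 and Grip1 had been chosen by the study on these arrays, so their directions here are not independent evidence. The study also measured both genes by qPCR and reported decreases, for Pick1 at a later time than on its arrays and for Grip1 at both times. It listed Grip1 as down-regulated on the arrays at 7 h as well as at 24 h, but here Grip1 did not pass at 7 h.

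Grip2, a multi-PDZ protein that anchors AMPA receptors, measured 1.18, 1.00 and 0.68 in Ctrl and -1.65, 0.67 and 0.27 in OGD at 24 h. OGD replicate 1 was far below the others, and OGD replicate 2 lay just under the lowest Ctrl array. The difference was -1.19 ± 0.50, which passed (limma adjusted p = 0.340), and -0.48 without OGD 24h replicate 1, which did not. The second probe of Grip2 gave 0.16 ± 0.23, so the 2-fold value was not shared by both probes. Grip1 did not pass at 24 h, with -0.73 ± 0.40, and was at -0.22 without OGD 24h replicate 1. Its second probe gave 0.10 at 7 h and -0.35 at 24 h, against -0.09 and -0.73 for the first. Cnih2, a cornichon that slows the closing of AMPA receptors, was lower at 24 h, at -0.86 ± 0.28, with Ctrl arrays at 6.41, 6.37 and 6.17 and OGD arrays at 4.91, 6.13 and 5.33. It still passed, with -0.59, without OGD 24h replicate 1.

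Of the 5 spine cytoskeleton, small GTPase and nuclear signaling genes, all were below 0 at 24 h (median -0.79). At the unadjusted threshold 3 were lower, beside 6.9% of named genes. At 7 h 4 lay below 0, beside 9070 of the 15154 named genes (median -0.11). Kalrn encodes kalirin, an exchange factor that activates Rac in spines. It measured 1.88, 1.60 and 1.79 in Ctrl and -0.42, 1.31 and 1.08 in OGD at 24 h. The arrays did not overlap, and OGD replicate 1 was far below the others. The difference was -1.10 ± 0.37 (limma adjusted p = 0.291), and it still passed without OGD 24h replicate 1, with -0.56. A second Kalrn probe gave 0.88 at 7 h and -0.17 at 24 h and passed at neither.

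Sipa1l1, which encodes SPAR, a Rap regulator that shapes spines, was lower at 24 h, at -0.79 ± 0.32. It was at -0.37 without OGD 24h replicate 1 and no longer passed. Synpo, which encodes synaptopodin of the spine apparatus, was lower, at -0.66 ± 0.30, with OGD arrays at -0.42, -0.29 and -0.48 and Ctrl arrays at -0.04, 0.20 and 0.63. Its OGD arrays lay close together, below all the Ctrl arrays, but the call was lost when any 1 of 8 of the 12 arrays was left out. Baiap2, which encodes IRSp53, an actin regulator that binds PSD-95 and Shank, was at -0.84 ± 0.41 and did not pass. Nsmf, which encodes Jacob, a messenger from NMDA receptors to the nucleus, was counted as higher at 7 h (0.61 ± 0.21), but its brightest probe was saturated on all 3 Ctrl arrays and on 2 of the 3 OGD arrays at that time. No fold can be read from a probe saturated on both sides. The second Nsmf probe, saturated on 0 arrays, was lower at both times, at -0.60 ± 0.24 and -0.76 ± 0.24.

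**Figure D4:**
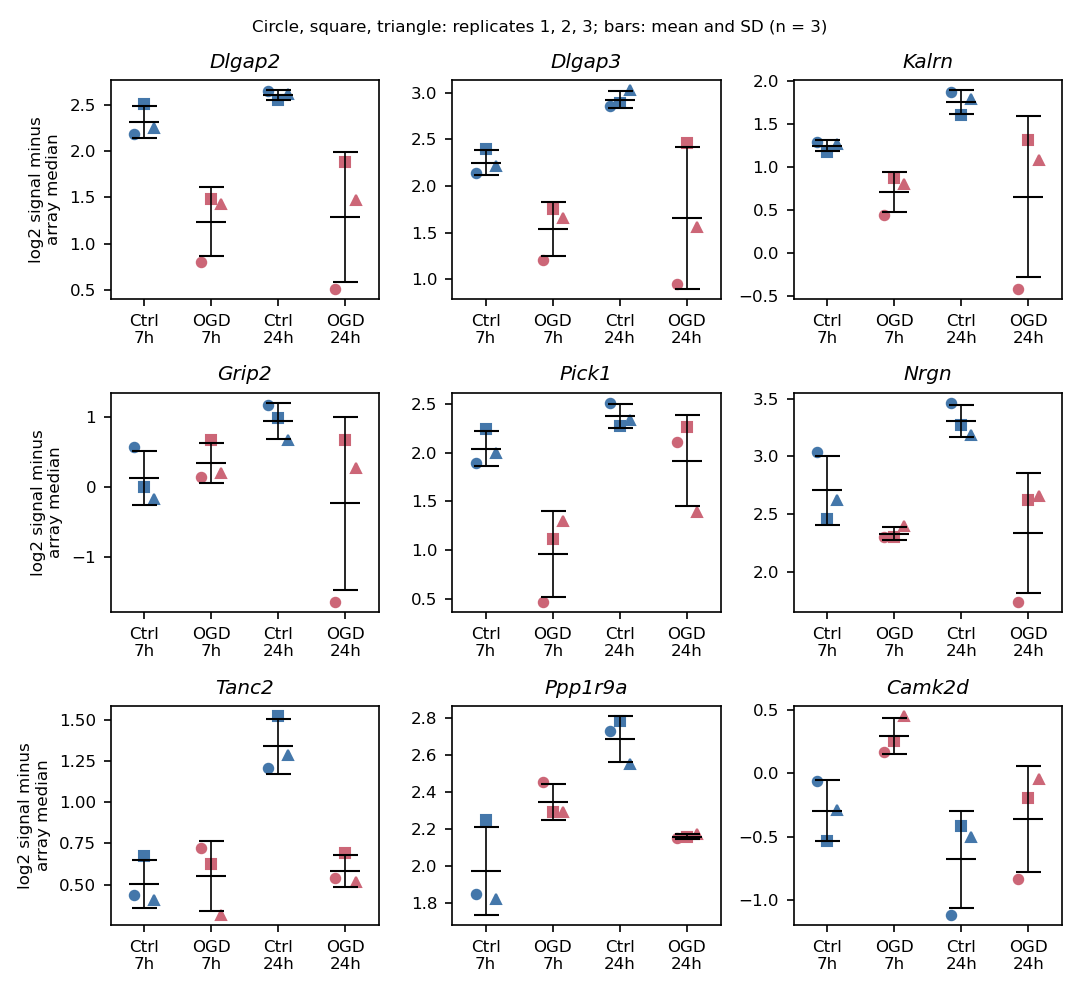
Log2 signal relative to the array median (vertical axes) for 9 genes in the 4 groups (horizontal axes). Points are single arrays, with a circle, square or triangle for replicates 1, 2 and 3, and black bars are the mean and SD of 3 arrays. Tanc2 and Ppp1r9a have tight OGD arrays at 24 h under a raised Ctrl, while the low OGD 24 h point of Grip2 and Kalrn is replicate 1.

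The 24 h response was compared with the 7 h response in the same limma fit, as the difference of the 2 differences. It was below 0 for 34 of 39 genes (median -0.47 against 0.05 over named genes), and 5 genes (12.8%) were lower at the unadjusted threshold, beside 1.31% of named genes, while 0 were higher, beside 2.12%. No adjusted p was under 0.05 in limma, over 1086 probes at an unadjusted p under 0.05. Under normexp background correction the median was -0.32 against -0.05 over named genes, and 0 genes passed. Lrrc7 had the largest of the 5 differences at -1.07 ± 0.38, followed by Ppp1r9a at -0.90 ± 0.24, Tanc2 at -0.81 ± 0.25 and Camk2a at -0.80 ± 0.33. Nsmf, at -0.72 ± 0.30, was measured by the saturated probe, and its second probe did not pass. With slide as a block 3 genes remained under the threshold. They were Ppp1r9a, Tanc2 and Lrrc7, and Camk2a and Nsmf were no longer under it. The count was also 3 without Ctrl 7h replicate 1, without OGD 7h replicate 1 or without Ctrl 24h replicate 1, and 8 without OGD 24h replicate 2. No share of named genes is given for the slide block, normexp or the left-out arrays here, so these counts cannot be set against one.

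The control cultures were not level between the 2 collection times. From Ctrl 7 h to Ctrl 24 h, 36 of 39 genes had a positive difference (median 0.30 against -0.05 over named genes), and 7 (17.9%) were higher at the unadjusted threshold, beside 5.46% of named genes, with 0 lower, beside 9.75%. These signs are relative to the array median, and scaled to the spike-in probe all 39 genes were lower in Ctrl 24 h, with a median of -4.27 where that of all named genes was -4.62. By the methods' t-test the count was 16. No share of named genes is given for that test or for the left-out arrays below, so these counts cannot be set against one. The 7 genes were Shank1, Camk2b, Camk2g, Nrgn, Ppp1r9a, Begain and Tanc2. The 3 Ctrl 24 h arrays lay above the 3 Ctrl 7 h arrays for 18 genes (46.2% beside 13.9%). Tanc2 went from 0.44, 0.67 and 0.40 to 1.21, 1.53 and 1.29 in Ctrl, while its OGD arrays measured 0.72, 0.63 and 0.31 at 7 h and 0.54, 0.69 and 0.51 at 24 h. Its level after OGD therefore overlapped the Ctrl 7 h level at both times, and the Ctrl 24 h arrays were the ones that stood apart. No slide held both times, so time and slide cannot be told apart, and this comparison shares the Ctrl 24 h arrays with the 24 h response. Without OGD 24h replicate 1, which enters through the shared spread, 14 genes differed between the controls. Leaving out other arrays gave 2 to 10, with 2 without Ctrl 24h replicate 2, 3 without Ctrl 7h replicate 3 or Ctrl 24h replicate 1, and 4 without Ctrl 7h replicate 2 or any 1 of the OGD 7h arrays.

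Because most of the 39 genes lay below 0 at 24 h, the sequences upstream of their start sites are shown for 3 of them. They are Tanc2, with the lowest p at 24 h, Nrgn, with the lowest p of the CaMK and calmodulin group, and Camk2d, which was higher at 7 h and not lower at 24 h (so was Nsmf, on its saturated probe). All 3 were chosen after their values were seen. Of the 39 genes, 34 matched a promoter entry in RefSeq (build GRCr8), and each line gives the 250 bases before the start site on the gene's strand. Tanc2 lies at chr10:91052817-91053066 on the plus strand, Nrgn at chr8:45452418-45452667 on the minus strand and Camk2d at chr2:217698301-217698550 on the plus strand. Capitals mark the GC box, GGGCGG or its reverse complement CCGCCC, the core of the sites bound by Sp1-type factors.
Tanc2: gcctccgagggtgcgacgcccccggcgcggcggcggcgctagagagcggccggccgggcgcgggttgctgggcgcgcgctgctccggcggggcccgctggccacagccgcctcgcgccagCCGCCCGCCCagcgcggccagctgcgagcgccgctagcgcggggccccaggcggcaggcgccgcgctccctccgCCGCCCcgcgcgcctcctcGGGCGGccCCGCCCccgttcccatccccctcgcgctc
Nrgn: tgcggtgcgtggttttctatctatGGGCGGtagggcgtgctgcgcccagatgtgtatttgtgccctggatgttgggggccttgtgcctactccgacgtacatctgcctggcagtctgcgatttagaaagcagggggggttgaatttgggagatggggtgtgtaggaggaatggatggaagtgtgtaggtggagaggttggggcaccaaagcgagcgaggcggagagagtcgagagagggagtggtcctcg
Camk2d: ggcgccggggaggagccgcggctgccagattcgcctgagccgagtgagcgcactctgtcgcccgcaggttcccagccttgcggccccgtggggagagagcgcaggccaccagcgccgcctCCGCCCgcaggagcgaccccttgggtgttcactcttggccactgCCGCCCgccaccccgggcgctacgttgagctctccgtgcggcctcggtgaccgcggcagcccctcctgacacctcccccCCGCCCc
The Tanc2 sequence holds 5 GC boxes, some overlapping, in 85.6% G and C. The Nrgn sequence holds 1 in 58% G and C, and that of Camk2d 3 in 75.2%. None of the 3 holds the cyclic AMP response element core TGACG or the TATA box TATAAA on either strand. A GC box was present in 58.8% of the 34 promoters, in 46.2% of those of the named genes and in 32.4% of all rat promoters in the table. TGACG was present in 14.7%, 23.3% and 19.0% of the same sets, and TATAAA in 2.94%, 11.5% and 13.1%. The 16 promoters of genes lower at 24 h (GC box in 56.2%) and the 18 others (61.1%) can be set side by side, as a description of these windows.

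Other genes of the density were read from 4 further lists, chosen by function with earlier results of these data known. Of their 93 genes 81 had a probe. At 24 h 23 were lower and 1 was higher at the unadjusted threshold (median -0.45), and at 7 h 9 were lower and 5 higher (median -0.22). Over the named genes 6.9% were lower and 6.36% higher at 24 h, and 8.06% and 3.89% at 7 h. The 24 h slide medians of the 81 genes were -1.08, -0.22 and -0.10, with 46 below 0 on the slide of replicate 3, and the first is that of the dim array. The other scaffolds and adaptors gave 8 lower of 21 at 24 h (median -0.49), among them Homer1, the third Homer gene, at -0.72 ± 0.28, and Lin7b, a partner of CASK, at -0.93 ± 0.31. The other calcium and calmodulin genes gave 7 lower of 25 (median -0.45). They included Camkk1, the kinase upstream of CaMKI and CaMKIV, at -1.48 ± 0.39 at 7 h and -1.12 ± 0.39 at 24 h, and Camk2n2, an inhibitor of CaMKII, at -0.76 ± 0.27 and -0.92 ± 0.27. Both passed at both times. The probes of Calm2 and Calm3, which encode calmodulin, were saturated on all 3 Ctrl arrays at 7 h and on 2 and 1 of the OGD arrays at that time, so no fold is given for them. They are 2 of the 5 genes counted as higher at 7 h, and the others were Dynll1, Cdc42 and Add2. At 7 h the probe of Dynll1 was saturated on 3 Ctrl arrays and 1 OGD array, and that of Cdc42 on 2 and 2. Of the 5, only Add2 had a probe that was not saturated.

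The other spine actin and small GTPase regulators gave 6 lower of 24 at 24 h (median -0.43, with slide medians of -0.93, -0.37 and 0.06). Actn2, the actinin that binds NMDA receptors and CaMKII, was lower at both times, at -1.10 ± 0.27 and -1.20 ± 0.27. Add2, an adducin that caps actin filaments, was higher at 7 h by 0.52 ± 0.16 and lower at 24 h, at -0.87 ± 0.16. The other AMPA receptor trafficking genes gave 2 lower and 1 higher of 11 (median -0.36). Their slide medians were -1.41, -0.10 and 0.01, with 5 of 11 below 0 on the slide of replicate 3. The 2 were Nsf, the ATPase that binds the GluA2 tail, at -1.12 ± 0.40, and Napa, its alpha-SNAP cofactor, at -0.61 ± 0.24. The 1 higher was Cnih4, a cornichon outside the Cnih2 and Cnih3 pair, at 0.77 ± 0.27.

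General neuronal markers moved with the members. All 14 neuron markers had a fold change below 0 at 24 h, with a median of -0.82, beside -0.66 for the 39 genes. Of named genes 6.9% were lower at the unadjusted threshold, and 9 of the 14 markers were. Their summed level was 9.41 to 9.95 in Ctrl and 8.37 to 9.37 in OGD at 24 h, without overlap. One of them, Stmn2, was saturated on 2 Ctrl arrays and 1 OGD array at that time. Their slide medians at 24 h were -1.80, -0.45 and -0.12. Their median at 7 h was -0.44, with 2 lower, beside 8.06% of named genes. Slc17a7, the vesicular glutamate transporter of excitatory neurons, was lower, at -1.53 ± 0.45, as was Eno2, a neuronal glycolytic enzyme, at -1.06 ± 0.27. In RNA from a whole culture, fewer neurons and less of each transcript per neuron cannot be told apart, and the part of the neuronal markers in the result was not tested.

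The markers of other cell types were read in the same way at 24 h. Of 8 astrocyte markers 7 had a fold change below 0 (median -0.20). In limma 0 of the 8 were lower at the unadjusted threshold, where 6.9% of named genes were. The slide medians of the astrocyte markers were -0.73, 0.16 and 0.06, with all 8 below 0 on the slide of replicate 1. Their summed level was 9.36 to 9.79 in Ctrl and 8.73 to 9.93 in OGD, with overlap. Microglial markers had a median of 0.26, with 1 of 8 higher, beside 6.36% of named genes. Their summed level was 4.23 to 4.53 in Ctrl and 4.43 to 4.98 in OGD, with overlap. Itgam went the other way, at -1.54 ± 0.81, did not pass, and was well above background on no OGD 24 h array. Of the 8 microglial probes 5 were well above background on all 12 arrays. Oligodendrocyte lineage markers had a median of 0.07 with 1 of 8 higher, beside 6.36%. Vascular cell and fibroblast markers had a median of 0.00 with 1 of 8 higher, beside 6.36%. The last list went both ways, with Pdgfrb, a pericyte receptor, higher at 1.34 ± 0.38, the collagen genes Col1a1 and Col1a2 at 1.50 ± 0.76 and 1.49 ± 0.69, and Kdr and Dcn at -0.86 ± 0.45 and -0.73 ± 0.46, these 4 not passing. Its summed level was 5.01 to 6.88 in Ctrl and 6.75 to 7.50 in OGD at 24 h, and its part in the result was not tested. At 7 h the last group had a median of -0.73 with 6 of 8 below 0 and 2 lower, beside 8.06% of named genes. The 2 were Pecam1 and Cldn5, whose probes were well above background on only 9 and 6 of the 12 arrays. Col1a1 and Col1a2 went the other way at 7 h, at 0.83 ± 0.76 and 0.86 ± 0.69, and did not pass. The summed level of the group at 7 h was 5.26 to 6.99 in Ctrl and 5.76 to 7.40 in OGD, with overlap. As a check of the labelled cell type, all 14 neuron markers were well above background on all 12 arrays. The 8 astrocyte markers were also well above background on all arrays.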

How the data were processed

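RNA of the 12 cultures was hybridised by the authors to single-colour Agilent rat arrays, and the deposited scanner files hold the processed intensity per spot from Feature Extraction (version 10.5.1.1), already background-subtracted. The authors' value table holds log2 values, which the study's methods describe as median-centred between arrays, and was used as an alternative. Over the probes used here the array medians of those values ran from 7.57 to 7.72. Here, log2 intensities were averaged over the spots of a probe without outlier-flagged spots and centred on the median of 30367 non-control probes. Probes were named by matching their accession to RefSeq, for 18004 of them. Where a gene had several probes, the one with the highest mean signal was used. No coordinates of the array design were used. Of 364404 values, 70 were missing, none of them in the genes described.

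All 12 arrays were fitted in 1 limma model of the 4 groups (limma 3.58.1, R 4.3.3), two-sided, with Benjamini-Hochberg adjustment over all probes. The precision is limited by 3 arrays per group. Tested on simulated data for 24 h, the fit recovered 78% of 2-fold changes at an unadjusted p under 0.05 and 13% after adjustment. It called 4.93% of unchanged probes at the former. The simulated noise was independent between probes and had the same spread on every array, so it held no dim array like OGD 24h replicate 1. These rates therefore need not hold for the real 24 h comparison. A gene was called lower or higher at an unadjusted p under 0.05. Genes named at each time were those called, filled up to 20 by the size of the fold change, and the rest are given by range or where a role needed them. The members and lists were chosen with earlier results of these data known. Other settings tried were scaling to a spike-in, quantile normalization, centring by the 75th percentile, normexp background correction (offset 50), a filter on dim probes, the authors' values, the methods' t-test, each time alone, slide as a block, array weights, a mean over probes and leaving out each array. Leaving out both slides of replicate number 1 was chosen after seeing the data. The files hold no mean signal per spot, so normexp used the median signal.

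Same-numbered arrays of a time shared a slide. Correlations of their deviations from the group means were -0.05, 0.11 and -0.01 at 7 h and 0.08, 0.17 and -0.01 at 24 h, so slide stayed an alternative. On the slides of replicates 1 and 2 at 7 h and of replicate 1 at 24 h, the OGD array was scanned 177 to 211 min before the Ctrl array.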

Additional observations from a re-analysis of the deposited data

Results flagged for a closer look

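For 5 genes the response to OGD differed between the recovery times by limma's interaction term at an unadjusted p under 0.05, and each is given as the 24 h response minus the 7 h response on the log2 scale. The differences were -0.80 for Camk2a, -0.90 for Ppp1r9a, -1.07 for Lrrc7, -0.81 for Tanc2 and -0.72 for Nsmf. None passed after adjustment over all probes. The value of Nsmf comes from a probe saturated on 9 of the 12 arrays. For Tanc2 and Ppp1r9a the Ctrl arrays were also higher at 24 h than at 7 h at the unadjusted threshold.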

How the results depend on the processing

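The count of genes lower at 24 h (19) was 14 to 22 under the other settings, except 4 under spike-in scaling, 10 with the methods' t-test, 8 without both slides of replicate number 1 and 13 to 24 when single arrays were left out. The count higher at 24 h stayed at 0, or 0 to 1 with single arrays left out. At 7 h the count lower (4) was 0 under spike-in scaling, 8 with the t-test and 8 with each time alone. It was 9 with array weights and 2 to 10 with single arrays left out. Over all settings, the share of named genes lower ran from 1.78% to 13.3% at 24 h and from 1.01% to 20.3% at 7 h. The count higher at 7 h (2) was 0 under spike-in scaling and normexp, 1 without the slides of replicate number 1, and 0 to 4 with single arrays left out. The count with a different response between times (5) was 0 under spike-in scaling and normexp, 8 with array weights, 3 without the slides of replicate number 1 and 3 to 8 with single arrays left out. The control difference (7) was 39 under spike-in scaling, 2 under normexp, 16 with the t-test, 18 with array weights, 13 without the slides of replicate number 1 and 2 to 14 with single arrays left out. No share of named genes is given for these between-time and control counts under the other settings, so they cannot be set against one. Spike-in scaling rested on 1 usable kind of probe of 10 and moved the median of all named genes to -0.91 at 7 h, -1.05 at 24 h and -4.62 between the controls. The other causes were not tested.

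With the replicate block (slide as a fixed term) the pairing left 15 genes lower at 24 h and 4 at 7 h, and 3 with a different response. As a random block the counts were 19, 5 and 5. No other call count moved by more than 1.5 times with the block.

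Of 1000 gene values under alternatives, 826 kept their direction and side of the threshold, 125 lost the threshold, 41 gained it and 8 changed sign, all at 7 h. Spike-in scaling turned Camk2d (-0.22), Nsmf (-0.20), Homer2 (-0.27), Ppp1r9a (-0.43) and Dlg1 (-0.49), normexp turned Ppp1r9a (-0.068), and averaging probes turned Kalrn (0.17) and Camk2b (0.077). The brightest probes of these genes were well above background on all arrays, but normexp still moved the 7 h median of the genes described from -0.13 to -0.48. The part of background handling in single values was not tested.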
